A study of Mus musculus with 2 samples.

Results

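The matrix metalloproteinases and their tissue inhibitors were followed, cell class by cell class, in MC38 tumours of C57BL/6 mice. MC38 is a colon carcinoma line of the mouse. The members were taken by gene symbol and are 7 proteases (Mmp2, Mmp3, Mmp9, Mmp12, Mmp13, Mmp14 and Mmp19) and 3 inhibitors (Timp1, Timp2 and Timp3), which makes 10 of the 32285 genes in the deposited matrices. All 10 were found. 1 droplet single-cell library was made from a tumour of MC38 cells that overexpress RSPO3 (genotype MC38-RSPO3-OE, here RSPO3-OE) and 1 from a tumour of control MC38 cells (MC38-Ctrl, here Ctrl). RSPO3 is a secreted R-spondin, a protein that strengthens Wnt signalling. The tissue is called a xenograft in the labels, although the line and the host are both mouse. The labels do not say how overexpression was driven, whether each line is a single clone, how many mice stand behind a library, where the tumours grew or when they were harvested. With 1 library per group, no difference below has a replicate check, no test was made, and all intervals are 95% intervals that cover counting error only.

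Matrix metalloproteinases are zinc enzymes that cut collagens, elastin, laminins and many other proteins outside the cell. Most are secreted as inactive precursors that other proteases open, while MMP14 sits in the cell membrane. The TIMP proteins bind the active enzymes and block them. TIMP2 has a second role, since on the cell surface a complex of MMP14 and TIMP2 holds the precursor of MMP2 so that a neighbouring MMP14 can activate it. In tumours these enzymes come from malignant cells, fibroblasts and infiltrating myeloid cells, and RNA levels do not give enzyme activity.

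In the mm10 assembly, by the GENCODE vM21 annotation, Mmp13 lies at chr9:7272514-7283331, Mmp12 at chr9:7344381-7369499 and Mmp3 at chr9:7445822-7455975, all on the plus strand within the chromosome 9 cluster of metalloproteinase genes. Mmp2 lies at chr8:92827291-92853420, Mmp9 at chr2:164940780-164955850, Mmp14 at chr14:54431612-54445364 and Mmp19 at chr10:128790910-128800824, also on the plus strand. The inhibitor genes lie at chrX:20870166-20874735 for Timp1, chr11:118301069-118355740 on the minus strand for Timp2, and chr10:86300372-86349506 for Timp3. All 10 are annotated as protein coding. On the opposite strand, Timp1 overlaps Syn1, Timp3 overlaps Syn3, Mmp12 overlaps Mmp1b, and Mmp19 overlaps Tmem198b and the antisense gene Gm47093. Timp2 overlaps Cep295nl on its own strand, so how reads of those overlaps were assigned depends on the authors' counting.

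Promoter sequences from RefSeq, assembly GRCm38.p6, were matched for 7 of the 10 members, in 8 windows that run from 250 bases before to 50 bases after a start, since Mmp12 has more than 1 start. The stretches below are the last 120 bases before the start of the clustered genes, printed because Mmp12 and Mmp13 varied together among macrophages while Mmp3 did not share their cell class. Capitals mark the AP-1 motif TGANTCA, a site type bound by Fos and Jun proteins, and the TATA motif TATAAA.
Mmp13 (chr9:7272394-7272513, plus strand): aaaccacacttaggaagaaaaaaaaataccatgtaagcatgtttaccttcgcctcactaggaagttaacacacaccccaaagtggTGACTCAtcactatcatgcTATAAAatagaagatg
Mmp12, its other start (chr9:7347254-7347373, plus strand): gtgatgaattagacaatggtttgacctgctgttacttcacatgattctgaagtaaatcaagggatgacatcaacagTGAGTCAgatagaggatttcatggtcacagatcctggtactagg
Mmp3 (chr9:7445702-7445821, plus strand): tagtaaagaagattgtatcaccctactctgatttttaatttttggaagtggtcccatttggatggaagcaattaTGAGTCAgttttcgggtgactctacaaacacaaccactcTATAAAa
The AP-1 motif, searched on both strands, began 35 bases before the start in Mmp13, 44 in Mmp12 and 46 in Mmp3. It was found in these 3 members alone among the 7 matched, and not in the window of the first Mmp12 start, while 7.81% of all 32851 RefSeq promoter windows of this length hold it. TATAAA is held by 13.6% of the windows. A match of letters is a description and not a shown binding site.

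The matrices hold 7314 barcodes for RSPO3-OE and 7301 for Ctrl, with 155615189 and 143881763 UMIs (counted molecules), and 7 barcode sequences occurred in both. Pairs of values below give RSPO3-OE first and Ctrl second. After filters and removal of called doublets, 6993 RSPO3-OE and 6895 Ctrl cells were kept. Tumour cells were gated as cells without Ptprc, the pan-leukocyte gene, and with at least 1 UMI of Hmga2, an oncofetal chromatin gene, which gave 4229 cells in RSPO3-OE and 4323 in Ctrl. Macrophages needed 20 UMIs of C1qa, C1qb and C1qc together (1214 and 1176 cells), neutrophils 20 of S100a8 and S100a9 (83 and 14 cells) and T cells 2 of Cd3d, Cd3e and Cd3g (416 and 208 cells). The gates can overlap, and 37 RSPO3-OE and 12 Ctrl cells met more than 1. Median depth was 25376 and 21437 UMIs in tumour cells, 11920.5 and 12676.5 in macrophages, 6861 and 7096 in T cells, and 1626 and 1797 in neutrophils. Rspo3 was found in 934 of the 4229 RSPO3-OE tumour cells and in 0 of the 4323 Ctrl tumour cells, which allows a share of cells with a UMI of up to 0.0694%. Such limits hold for cells with a UMI at the depth reached and not for cells that express a gene. The gated tumour cells did not carry the epithelial genes Epcam (0 CPM in both, CPM being UMIs scaled to a class total of 1e6) or Krt18 (0.448 and 0.349 CPM), and they did carry the matrix genes Dcn (2095 and 1686 CPM) and Col3a1 (1419 and 613 CPM), so the class is named by its gate and not by an epithelial identity. Their summed level of 4 Y-linked genes was 0.396 and 0.226 CPM, against 149 and 95.2 CPM in macrophages. In the neutrophil gate the granulocyte genes Csf3r (559 and 399 CPM) and Cxcr2 (240 and 218 CPM) were present.

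The members were highest in different cell classes, and the gelatinases Mmp2 and Mmp9 led in different ones. Tumour cells led for Mmp2 and Timp1, neutrophils for Mmp9, and macrophages for Mmp12, Mmp13 and Mmp14, in both libraries and with counting intervals that did not overlap those of the next class. Timp2 was highest in tumour cells of RSPO3-OE. In Ctrl it was highest in the 14 neutrophils, at 580 CPM on 32 UMIs against 429 CPM in tumour cells, with overlapping intervals. The leading class of Mmp3 and Timp3 rested on 1 to 5 UMIs, except for Timp3 in Ctrl tumour cells, and both genes are taken up with the cells outside the gates. Mmp19 was highest in macrophages, but in RSPO3-OE its interval overlapped that of neutrophils with 2 UMIs. No member was highest in T cells. With 14 cells, the interval for 0 UMIs in Ctrl neutrophils reaches 66.9 CPM, so low genes cannot be placed there.

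**Figure D1:**
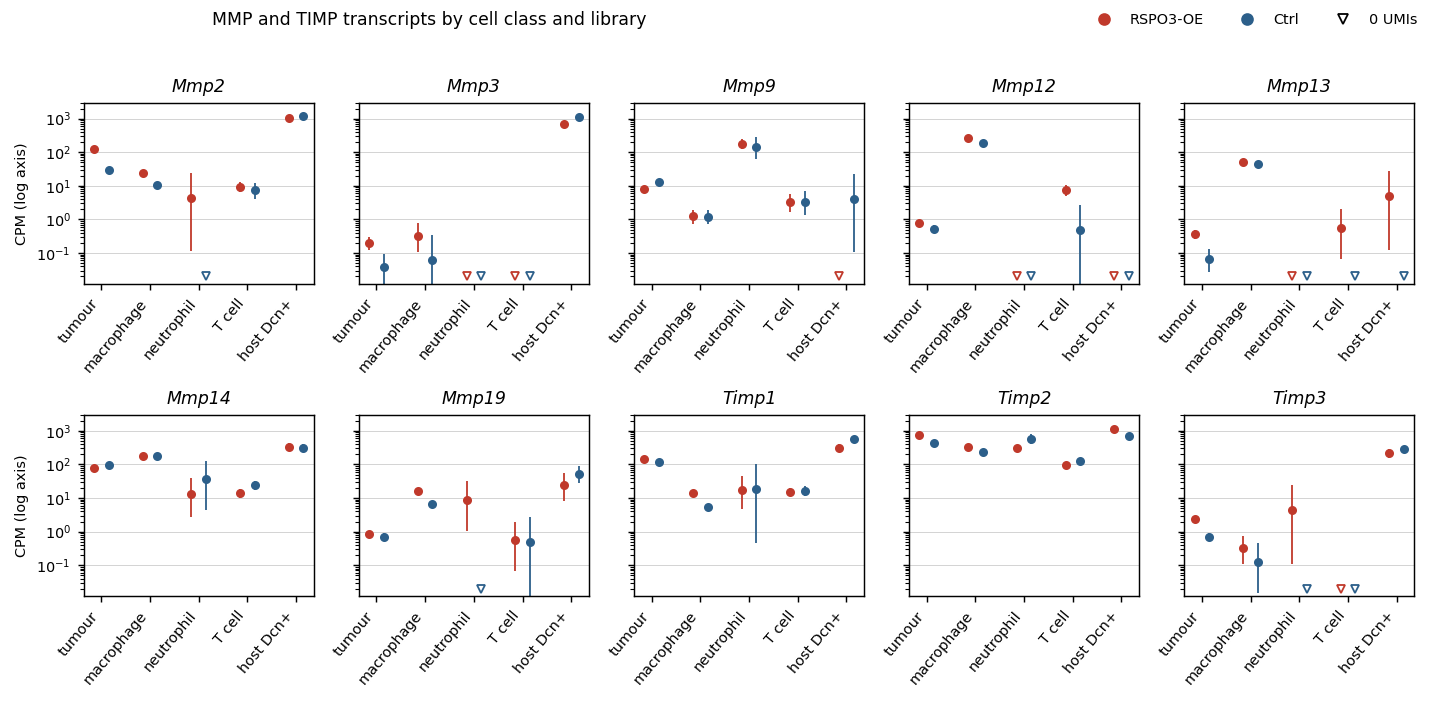
Level of each member as CPM on a log axis, 1 panel per gene, in tumour cells, macrophages, neutrophils, T cells and ungated host cells with Dcn; red points are RSPO3-OE, blue points Ctrl, bars are 95% exact Poisson intervals and open triangles mark 0 UMIs. Mmp12 and Mmp13 stand in macrophages, Mmp9 in neutrophils, and Mmp2, Timp1 and Timp2 in tumour cells and in the host cells with Dcn. Timp2 is also high in Ctrl neutrophils.

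Read by UMIs and not by level, a class can hold most of a gene's molecules without leading it. Tumour cells that met no other gate held 79.3% of all Mmp2 UMIs in RSPO3-OE and 72.0% in Ctrl. They also held 83.3% and 80.9% of all Mmp9 UMIs, while neutrophils held 3.64% and 0.481%. Macrophages held 81.2% and 88.7% of Mmp12 and 78.6% and 94.04% of Mmp13. The gated tumour cells outnumbered the neutrophils by far, which separates the class with the highest Mmp9 level from the class with most Mmp9 molecules. Tumour cells held 67.1% and 68.4% of Mmp14, 91.5% and 90.2% of Timp1, and 85.7% and 82.2% of Timp2.

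**Figure D2:**
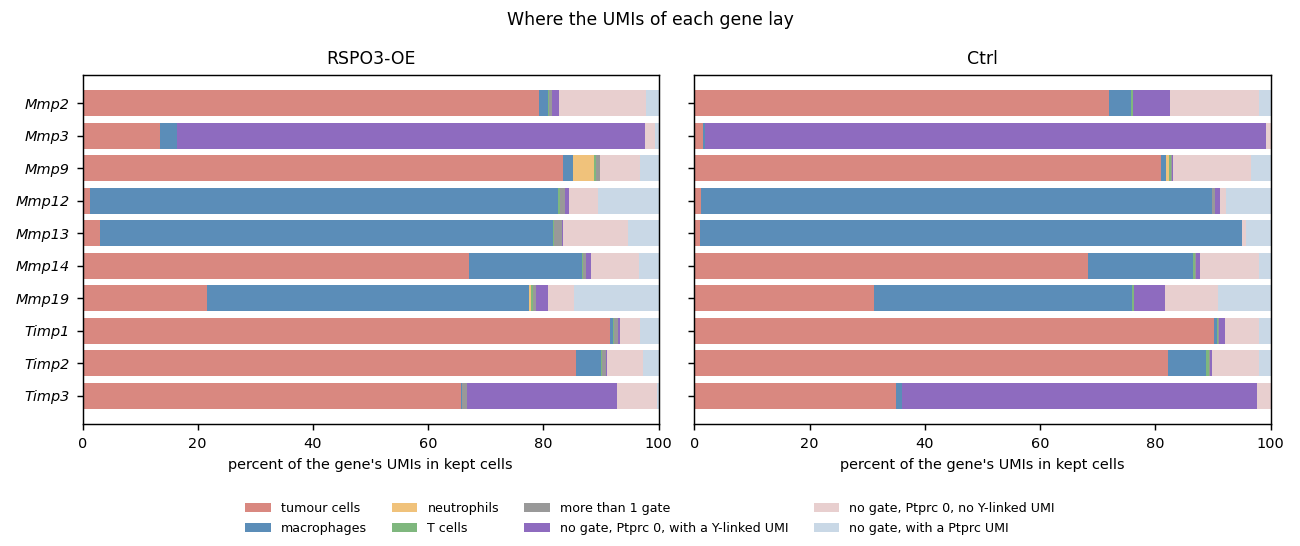
Stacked bars give the percent of each gene's UMIs in the kept cells of a library by where they were found, 1 pair of bars per gene (RSPO3-OE and Ctrl). The sources are the 4 gates without overlap, cells in more than 1 gate, and ungated cells split by Ptprc and by Y-linked UMIs. Mmp3 comes mostly from ungated cells with a Y-linked UMI, 81.3% in RSPO3-OE and 97.4% in Ctrl.

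In tumour cells, all 10 members had at least 10 UMIs over both libraries. 6 of them were at least 1.5-fold higher in RSPO3-OE (Mmp2, Mmp3, Mmp12, Mmp13, Timp2 and Timp3), against 13.6% of 15214 genes with that minimum. 1 was at least 1.5-fold lower (Mmp9), against 17.0% of genes. The members' median log2 ratio of RSPO3-OE over Ctrl was 0.72, beside -0.09 over all genes tested. Mmp3, Mmp12 and Mmp13 entered this count on 4 to 92 UMIs per library, and Mmp2 and Timp2 rest on the most molecules among the 7. The values of Timp3 and Mmp9 are given below with the settings that move them.

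Mmp2 encodes gelatinase A, which digests denatured collagen and basement membrane collagen. Tumour cells of RSPO3-OE held 14453 Mmp2 UMIs, or 125 CPM (123 to 127), and those of Ctrl 3234 UMIs, or 30.5 CPM (29.4 to 31.5). The level was therefore 4.09-fold higher in RSPO3-OE, a log2 ratio of 2.03 (1.98 to 2.09). A UMI of Mmp2 was found in 79.4% of RSPO3-OE tumour cells (78.1 to 80.6) and in 27.7% of Ctrl tumour cells (26.4 to 29.0). In T cells, far shallower than tumour cells, the share was 4.09% and 3.85%. After every cell was thinned to 2000 UMIs, which removes the difference in depth, 23.5% and 4.65% of tumour cells held one. The share of cells with a UMI thus differed in the same direction as the summed level. At equal depth such a share rises with the level, so it is not a separate result.

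Mmp9 encodes gelatinase B, an enzyme that neutrophils store in granules, and tumour cells carried it the other way round. It stood at 7.96 CPM (7.45 to 8.49) and 12.7 CPM (12.04 to 13.4), with a UMI in 11.7% and 16.8% of tumour cells. The log2 ratio was -0.68 (-0.80 to -0.55). Under median-of-ratios scaling it was -0.58 and no longer at 1.5-fold. The neutrophil gene S100a8 stood in tumour cells at 0.00283% and 0.000904% of its neutrophil level, and Mmp9 at 4.48% and 8.76% of its own. Each of the 7 neutrophil markers, Mmp9 left aside, was under 1 CPM in the tumour gate, 2.15 and 0.386 CPM in sum.

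Mmp14, the membrane protease that activates the MMP2 precursor, did not share the Mmp2 difference. Tumour cells held 77.1 CPM (75.5 to 78.7) and 97.1 CPM (95.2 to 99.0), with a UMI in 78.5% and 79.3% of cells. The log2 ratio was -0.33 (-0.37 to -0.29), under 1.5-fold.

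Timp2, the inhibitor that also takes part in MMP2 activation, was higher in RSPO3-OE. Its tumour cell level was 775 CPM (770 to 781) and 429 CPM (425 to 433), a 1.81-fold difference with a log2 ratio of 0.85 (0.84 to 0.87). Nearly every tumour cell held a UMI, 99.9% and 96.7%, and 74.1% and 52.9% did after thinning. All 3 transcripts of the activation complex, Mmp2, Mmp14 and Timp2, were found together in 2651 of 4229 RSPO3-OE tumour cells (62.7%, 61.2 to 64.1) and in 1018 of 4323 Ctrl cells (23.5%, 22.3 to 24.8). After thinning these shares were 2.96% and 0.671%. They too rise with the levels of the 3 genes and are not a separate result.

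Timp1, a secreted inhibitor of most soluble metalloproteinases, was close between the libraries. Its tumour cell level was 144 CPM (142 to 146) and 121 CPM (118 to 123), a log2 ratio of 0.25 (0.22 to 0.29). Timp3, an inhibitor that binds to the matrix, was low in tumour cells, at 2.38 CPM (2.11 to 2.68) and 0.706 CPM (0.556 to 0.886), a log2 ratio of 1.75 (1.38 to 2.14). 1 RSPO3-OE cell of the tumour gate held 70 of the 276 Timp3 UMIs, together with 46 UMIs of the endothelial gene Pecam1 and 7 of Y-linked genes. Without tumour-gate cells that held a Y-linked UMI the ratio was 1.35. Pecam1 over the whole gate stood at 7.23 and 1.91 CPM and Cdh5, another endothelial gene, at 8.17 and 0.527 CPM; none of the 3 endothelial markers was at 0, their sum was 15.6 and 2.45 CPM, and their part in the Timp3 difference was not tested beyond that.

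The remaining proteases were near the floor in tumour cells. Mmp3, or stromelysin-1, gave 23 UMIs in RSPO3-OE and 4 in Ctrl, a log2 ratio of 2.40 (0.85 to 4.39). Mmp13, collagenase 3, gave 43 and 7 UMIs, a log2 ratio of 2.49 (1.33 to 3.89), and 1 RSPO3-OE cell supplied 13 of the 43. Mmp12, macrophage elastase, gave 92 and 56 UMIs, a log2 ratio of 0.59 (0.09 to 1.09). The Mmp12 value sits at the 1.5-fold line and turns to -0.090 with stricter gates and to -0.013 with called doublets kept, so no direction is read from it. Mmp19 was at 0.853 and 0.706 CPM, a log2 ratio of 0.27 (-0.18 to 0.73). The macrophage gene C1qa in the tumour gate was at 0.205% and 0.157% of its macrophage level, and Mmp12 at 0.306% and 0.281% of its own.

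**Figure D3:**
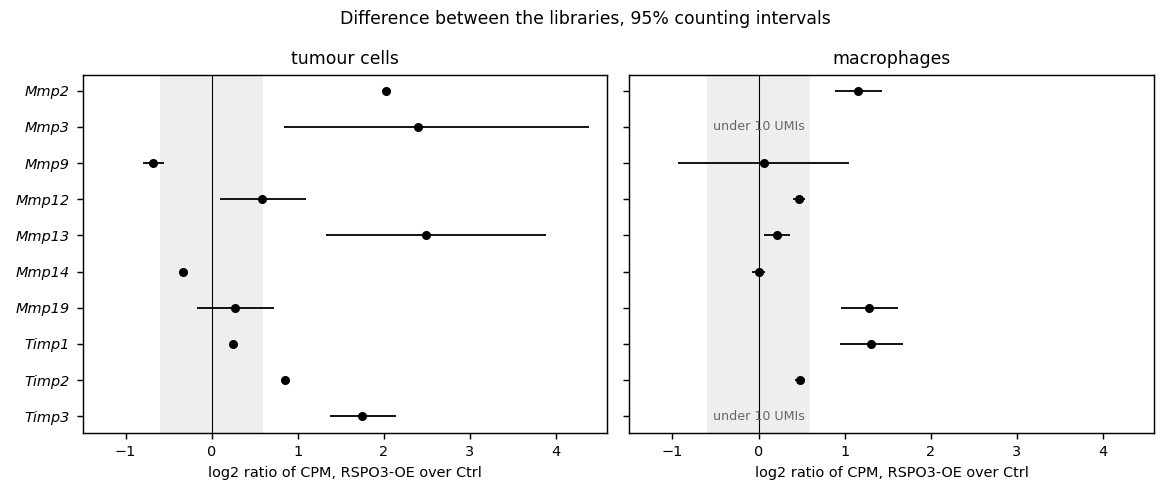
Log2 ratio of RSPO3-OE over Ctrl for each member in tumour cells and in macrophages, with 95% counting intervals; the grey band spans less than 1.5-fold either way. In tumour cells Mmp2 stands at 2.03 and Timp2 at 0.85 while Mmp9 stands at -0.68; Mmp14 in macrophages stands at 0.00, and Mmp3 and Timp3 in macrophages rest on under 10 UMIs.

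Tumour cells were next divided by marker genes, with overlapping subsets chosen with earlier results known. Mmp2 was higher in RSPO3-OE in every subset compared, though the Ctrl value rests on 6 UMIs in cells with Has1, and the subsets differed in size between the libraries. Cells with at least 10 UMIs of Mgp, a matrix protein gene, were 860 of the RSPO3-OE tumour cells and 170 of those in Ctrl. Within them Mmp2 stood at 260 and 76.6 CPM, which was 2.66-fold and 2.64-fold above the other tumour cells of the same library. The other tumour cells stood at 97.6 and 29.0 CPM. The log2 ratio was 1.76 within the Mgp cells and 1.75 outside them, beside 2.03 for the class, and the Mgp cells held 34.6% of the class's Mmp2 UMIs in RSPO3-OE and 7.82% in Ctrl.

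Cells with no UMI of Mgp, Lum, Pdgfra or Has1 were 660 in RSPO3-OE and 2220 in Ctrl. There Mmp2 stood at 68.8 and 23.2 CPM, a log2 ratio of 1.57 (1.45 to 1.69). Mmp9 in these cells was 15.0 and 10.3 CPM, a log2 ratio of 0.55 (0.33 to 0.76). This is the opposite sign to Mmp9 over the whole class. Among the Mgp cells Mmp9 was 1.61 CPM in RSPO3-OE (31 UMIs) and 11.8 CPM in Ctrl (39 UMIs), a log2 ratio of -2.87. Among cells with at least 3 UMIs of the fibroblast genes Lum and Pdgfra it was 15.4 and 16.3 CPM, a log2 ratio of -0.08 (-0.40 to 0.24). The Mmp9 difference between the libraries was thus not uniform over the tumour cells.

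Dividing cells carried less Mmp2 in both libraries, and Krt8 cells did so in RSPO3-OE. Krt8 is a keratin gene. RSPO3-OE cells with at least 10 UMIs of Krt8 had 75.5 CPM of Mmp2, 0.480 times the other RSPO3-OE tumour cells. In Ctrl the 203 such cells had 37.4 CPM, 1.25 times the others. Cells with at least 4 UMIs of Mki67 and Top2a, genes of dividing cells, had 79.5 and 22.6 CPM, 0.394 and 0.5004 times the rest. Mmp14 was also lower in the dividing cells, at 0.696 and 0.728 times the rest, whereas Timp1 was at 1.29 and 1.11 times the rest. RSPO3-OE tumour cells with a Rspo3 UMI had 87.2 CPM of Mmp2. Those without had 137 CPM, a log2 ratio of 2.17 over Ctrl. Mmp2 was thus not higher in the cells with detected Rspo3. A cell without a UMI can still express Rspo3, and the protein is secreted, so this split does not separate exposed from unexposed cells. Timp2 was steadier than Mmp2, with log2 ratios between 0.56 and 1.12 over the subsets.

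**Figure D4:**
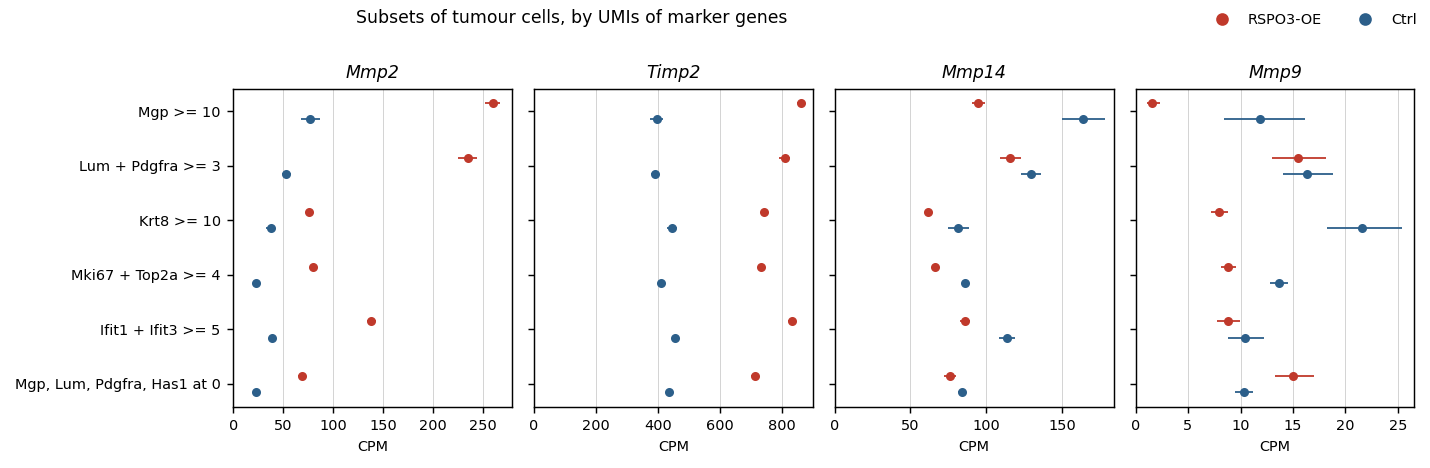
CPM of Mmp2, Timp2, Mmp14 and Mmp9 in marker-defined tumour cell subsets, RSPO3-OE in red and Ctrl in blue, with 95% exact Poisson intervals. Mmp2 is higher in RSPO3-OE in each subset shown, from 260 against 76.6 CPM in Mgp cells to 68.8 against 23.2 CPM in cells without Mgp, Lum, Pdgfra and Has1, while Mmp9 changes sign between subsets.

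In macrophages, 8 members had at least 10 UMIs. 3 were at least 1.5-fold higher in RSPO3-OE (Mmp2, Mmp19 and Timp1), against 13.3% of 12845 genes, and 0 were lower, against 7.79%. The members' median log2 ratio was 0.47, beside 0.05 over all genes tested. Of these 3, Mmp19 was the only one whose level was not higher in tumour cells of the same library.

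Mmp12, the macrophage elastase, was concentrated in few cells. The summed level was 259 CPM (251 to 268) and 188 CPM (181 to 194), a log2 ratio of 0.47 (0.40 to 0.54), under 1.5-fold. A UMI was found in 17.5% of RSPO3-OE macrophages (15.4 to 19.7) and in 15.4% of Ctrl macrophages (13.4 to 17.6), and in 0 of 83 and 0 of 14 neutrophils, which allows shares of cells with a UMI of up to 3.61% and 21.4% at the neutrophils' lower depth. 77 and 65 macrophages with at least 10 UMIs held 90.5% and 90.4% of the Mmp12 UMIs, with up to 265 and 377 UMIs in a cell. A minority of macrophages thus supplied nearly all Mmp12 in both libraries.

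Mmp13, a collagenase that cuts fibrillar collagen, stood at 50.4 CPM (46.9 to 54.1) and 43.4 CPM (40.3 to 46.8), a log2 ratio of 0.22 (0.07 to 0.37). It was found in 11.2% and 13.6% of macrophages. Mmp12 and Mmp13 occurred together in 76 RSPO3-OE and 75 Ctrl macrophages. Of the macrophages with Mmp13, 55.9% and 46.9% also held Mmp12, against 17.5% and 15.4% of all macrophages. Across macrophages the Pearson correlation of their log levels was 0.54 in RSPO3-OE and 0.49 in Ctrl, a description over cells that share a library and a range of depths. Among 8950 genes compared, the likeness to Mmp12 was highest for Mmp13, then Clec4d (0.45 and 0.47), a myeloid lectin gene, and Hilpda (0.42 and 0.43), a lipid droplet gene.

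Mmp14 did not differ between the libraries in macrophages, at 174 CPM (167 to 180) and 173 CPM (167 to 180), a log2 ratio of 0.00 (-0.07 to 0.08). Mmp19, a secreted protease found in myeloid cells, was 16.5 CPM (14.5 to 18.6) and 6.76 CPM (5.54 to 8.16). Its log2 ratio was 1.29 (0.96 to 1.63), and 13.3% and 7.57% of macrophages held a UMI, with up to 8 and 3 UMIs in a cell. Unlike Mmp12, Mmp19 had few molecules in any cell, on low totals of 253 and 108 UMIs. It was found in a smaller share of macrophages than Mmp12 in both libraries.

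Timp2 in macrophages stood at 330 CPM (321 to 339) and 236 CPM (229 to 244), a log2 ratio of 0.48 (0.42 to 0.54). Among macrophages its level went with lysosomal genes, with correlations of 0.46 and 0.42 for Cd63, 0.43 and 0.42 for Ctsd, and 0.39 and 0.38 for Ctsb. In tumour cells Timp1 had its highest likeness, among 10125 genes, to Klra4 (0.31 and 0.36), Anxa2 (0.31 and 0.35) and Upp1 (0.34 and 0.30), and no gene reached 0.3 in both libraries for Mmp2.

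Mmp2 and Timp1 in macrophages were low beside tumour cells. Mmp2 was 23.6 and 10.6 CPM, a log2 ratio of 1.16 (0.89 to 1.43), and Timp1 13.8 and 5.57 CPM, a log2 ratio of 1.31 (0.95 to 1.68). Without the cells that met more than 1 gate these ratios were 0.80 and 0.41, and with stricter gates that of Timp1 was -0.048. Tumour cell genes also stood in the macrophage gate at a fraction of their tumour level, Hmga2 at 4.46% and 2.59% and Dcn at 11.9% and 6.39%, while Mmp2 stood at 18.9% and 34.7% and Timp1 at 9.61% and 4.62%. Summed over the 7 tumour markers, of which 1 was at 0 in each library, the macrophage gate held 64.9 and 32.7 CPM. The part of tumour cell RNA in these values was not tested. Mmp9 was near the floor in macrophages, with 19 UMIs in each library. Mmp3 gave 5 and 1 UMIs and Timp3 5 and 2.

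Macrophages with at least 5 UMIs of Arg1, the arginase gene of alternatively activated and hypoxic macrophages, held most of the elastase and collagenase in both libraries. They were 702 cells (57.8%) in RSPO3-OE and 470 (40.0%) in Ctrl. Within them Mmp12 was 395 and 392.3 CPM, a log2 ratio of 0.01 (-0.06 to 0.08), and these cells held 91.4% and 91.3% of macrophage Mmp12 UMIs. Mmp13 within them was 77.5 and 76.5 CPM, a log2 ratio of 0.02 (-0.15 to 0.18). The summed levels of Mmp12 and Mmp13 within Arg1 macrophages were thus alike between the libraries within counting error, which does not cover spread between cells. The share of Arg1 macrophages was larger in RSPO3-OE, and its part in the class values was not tested. Outside them Mmp12 was 56.1 and 29.0 CPM and Mmp13 9.79 and 17.8 CPM. Mmp19 was higher in RSPO3-OE on either side, with log2 ratios of 1.01 in Arg1 macrophages (22.2 and 11.04 CPM) and 1.19 in the others (7.83 and 3.44 CPM).

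Timp2 followed another macrophage group. Cells with at least 5 UMIs of Ccl8 and Retnla were 413 (34.0%) in RSPO3-OE and 99 (8.42%) in Ctrl. Their Timp2 level was 475 and 500 CPM, a log2 ratio of -0.07 (-0.19 to 0.04), which was 1.92-fold and 2.42-fold above the other macrophages. Those others stood at 248 and 207 CPM, a log2 ratio of 0.26. Cells with Folr2, a gene of resident macrophages, had 994 and 764 CPM, over 21 and 44 cells. Cells with the monocyte genes Ly6c2 and Ccr2 had 159 and 132 CPM, 0.417 and 0.508 times the rest. Mmp12 in these monocyte-marked cells was 131 and 45.4 CPM, a log2 ratio of 1.53. Cells with at least 5 UMIs of Mrc1, the mannose receptor gene, went against the class for Mmp12 at 116 and 186 CPM, a log2 ratio of -0.68. Cells with at least 5 UMIs of Cxcl9, a chemokine gene induced by interferon gamma, had Mmp12 at 67.0 and 30.6 CPM and Mmp13 at 18.1 and 67.9 CPM, with log2 ratios of 1.13 and -1.91. The signs for Mmp12 and Mmp13 thus differed between these subsets. Most Mmp12 UMIs lay in few macrophages, and counting intervals do not cover spread between cells. No dependence on the subset is therefore read from these signs. The log2 ratio of Mmp14 lay between -0.24 and 0.16 in every macrophage subset, and that of Mmp19 between 0.53 and 1.52 in those with enough UMIs in both libraries.

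**Figure D5:**
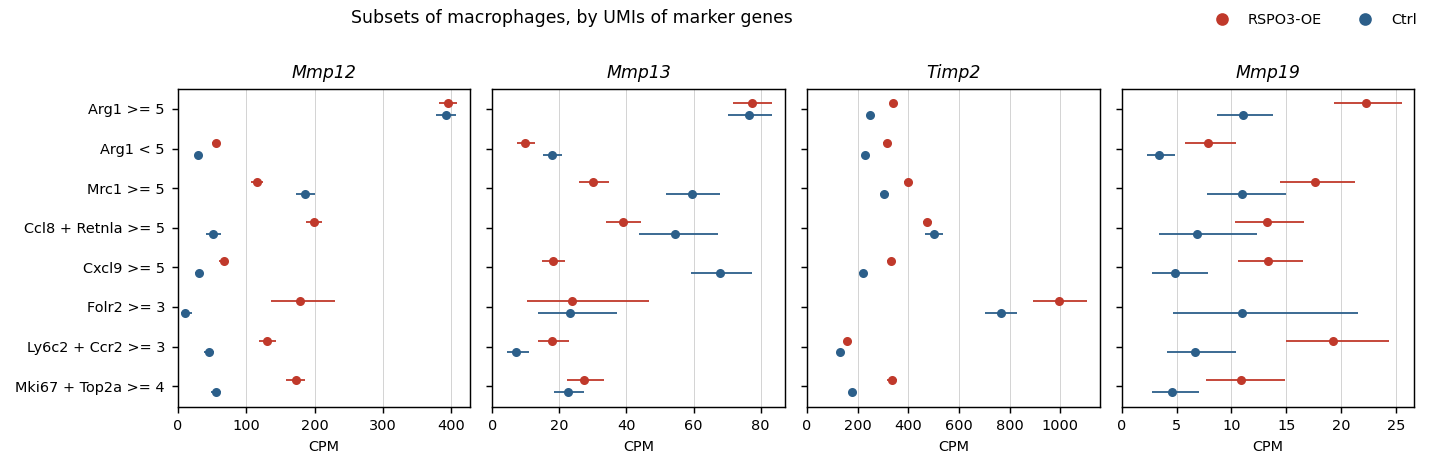
CPM of Mmp12, Mmp13, Timp2 and Mmp19 in marker-defined macrophage subsets, RSPO3-OE in red and Ctrl in blue, with 95% exact Poisson intervals; a gene with 0 UMIs in a subset has no point. Mmp12 is 395 and 392.3 CPM in Arg1 macrophages, and Timp2 is highest in the Folr2 and the Ccl8 and Retnla subsets.

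Neutrophils, with 83 cells in RSPO3-OE and 14 in Ctrl, allow coarse statements only. Mmp9 gave 40 UMIs, or 177 CPM (127 to 242), in RSPO3-OE and 8 UMIs, or 145 CPM (62.6 to 286), in Ctrl. It was found in 25.3% and 35.7% of neutrophils, and the level was 22.3-fold and 11.4-fold above tumour cells. Mmp9 thus marked neutrophils in both libraries, and the intervals of the libraries overlapped. Timp2 gave 69 and 32 UMIs, of which 1 cell in each library held 40 and 22. Mmp3, Mmp12 and Mmp13 gave 0 UMIs in both. C1qa stood at 701 CPM in the RSPO3-OE neutrophils and 0 in those of Ctrl, and Hmga2 at 111 and 90.6 CPM. The matrix genes Dcn and Bgn stood there at 142 and 1631 CPM and at 102 and 544 CPM, while Krt8 was at 8.87 and 0 CPM. In Ctrl, Dcn was at 96.8% of its tumour level. The part of RNA from other cells in the neutrophil values, Timp2 among them, was not tested.

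In T cells 6 members had at least 10 UMIs. 1 was higher (Mmp12), against 10.1% of 11186 genes, and 1 lower (Mmp14), against 16.6%. Mmp12 gave 27 UMIs in 8 RSPO3-OE cells and 1 UMI in 1 Ctrl cell, and 2 of the RSPO3-OE cells held 77.8%. Mmp14 gave 50 UMIs in each library, 13.8 and 24.2 CPM, a log2 ratio of -0.81 (-1.41 to -0.21). Both rest on few molecules in few cells. Timp2 was 95.96 and 126 CPM, a log2 ratio of -0.39 (-0.62 to -0.15), where 7 and 11 cells with at least 10 UMIs held 60.8% and 82.6% of the UMIs. Over 10 alternatives the Timp2 ratio lay between -0.77, without cells in more than 1 gate, and 0.27, as the mean of the cells' own CPM, and it kept its sign in 6, so no direction is read from it. Hmga2 stood in T cells at 7.96% and 21.0% of its tumour level and Timp2 at 12.4% and 29.3%, and the part of tumour cell RNA was not tested.

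Mmp3 in both libraries and Timp3 in Ctrl came mostly from cells outside all gates. In RSPO3-OE, 65.6% of the Timp3 UMIs, 273 of 416, lay in tumour cells that met no other gate. Of these 273, 70 came from the 1 cell with 46 Pecam1 UMIs and 7 Y-linked UMIs described above. The contrast with Ctrl in where Timp3 lay therefore rests in part on 1 cell. The ungated cells were looked at after these values were seen. 58 RSPO3-OE and 26 Ctrl cells held no Ptprc UMI, met no gate and held a Y-linked UMI, a mark of host cells here. They gave 139 Mmp3 UMIs in RSPO3-OE and 266 in Ctrl, with 108 and 132 of Timp3. Those with at least 10 UMIs of Dcn, the decorin gene of fibroblasts, were 12 cells in each library. These 12 cells held all of those Mmp3 UMIs, at 683 and 1088 CPM, and 1 Ctrl cell alone held 210. Their Mmp2 was 1023 CPM (208 UMIs) and 1166 CPM (285 UMIs). The Mmp2 level in these cells was above that in the tumour cells of either library. The group was not of one make-up in both libraries, since the 7 tumour markers summed to 29.5 CPM in RSPO3-OE, with 5 at 0, and to 205 CPM in Ctrl, with 3 at 0. Hmga1 was 0 and 110 CPM there and Krt8 19.7 and 73.7 CPM, while the 5 fibroblast markers summed to 27394 and 20341 CPM. The part of tumour cell RNA or of tumour cells in the Ctrl values was not tested, so no comparison between libraries is drawn from them. Timp1 in them was 320 and 577 CPM and Timp2 1165 and 708 CPM.

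Host cells with at least 3 UMIs of the endothelial genes Pecam1 and Cdh5 were 6 and 5. They held Timp3 at 711 CPM (61 UMIs) and 672 CPM (52 UMIs), a log2 ratio of 0.08, and no Mmp2 or Mmp3 UMI. Timp3 was therefore carried by both kinds of host cell, and Mmp3 by the Dcn cells alone among these.

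Set against each other as molecules, TIMP UMIs outnumbered MMP UMIs in tumour cells, with 4.35 per MMP UMI in RSPO3-OE and 3.89 in Ctrl. In macrophages there were 0.655 and 0.572. Timp2 alone gave 89968 of the 106916 TIMP UMIs of RSPO3-OE tumour cells and 45569 of the 58439 in Ctrl, so the tumour cell ratio mainly follows Timp2. These are ratios of counted molecules over the 3 inhibitors and 7 proteases, and the capture of each transcript was not measured.

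Of the list of other metalloproteinases with Timp4, 16 genes were in the matrices and 5 had at least 10 UMIs in tumour cells, where 3 were higher, 0 lower and the median log2 ratio was 0.87. Over all genes 13.6% were higher and 17.0% lower in tumour cells, with a median of -0.09, and the list counts that follow in tumour cells are to be read against these shares. Mmp25, a protease anchored in the membrane by a lipid, gave 210 UMIs in RSPO3-OE and 6 in Ctrl, a log2 ratio of 5.00. Mmp10, stromelysin-2, was 0.569 and 0.283 CPM and Mmp28 0.690 and 0.377 CPM. Mmp11, stromelysin-3, was 26.9 and 32.8 CPM, a log2 ratio of -0.28. In macrophages, where 13.3% of all genes were higher and 7.79% lower with a median of 0.05, 2 of 5 were higher and 1 lower, and Mmp25 stood at 18.4 and 5.69 CPM.

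Among 16 measured genes that activate or clear metalloproteinases, 6 were higher and 1 lower in tumour cells, against 13.6% and 17.0% of all genes, with a median log2 ratio of 0.23. Thbs2, a thrombospondin that aids uptake of MMP2, was 20.9 and 2.03 CPM, a log2 ratio of 3.37. Itgb3, an integrin subunit, was 11.3 and 2.06 CPM, a log2 ratio of 2.45. Plau, which makes the plasminogen activator urokinase, was 12.1 and 5.68 CPM, while Thbs1 went the other way at 8.08 and 15.4 CPM. In macrophages 7 of 16 were higher and 0 lower, against 13.3% and 7.79% of all genes, and Thbs1 there stood at 435 and 198 CPM, a log2 ratio of 1.14.

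The related ADAM and ADAMTS proteases split evenly in tumour cells, with 4 higher and 4 lower of 15 and a median log2 ratio of 0.09. Over all genes 13.6% were higher and 17.0% lower. Adamts5, an aggrecan-cutting enzyme, was 53.9 and 16.9 CPM, a log2 ratio of 1.68, and Adamts9 was 0.517 and 1.64 CPM, a log2 ratio of -1.66. In macrophages 3 of 12 were higher and 2 lower, against 13.3% and 7.79% of all genes. Of 13 cathepsin genes, lysosomal proteases, 2 were higher and 1 lower in tumour cells, near or below the shares of 13.6% and 17.0% over all genes, with Ctss at 17.9 and 9.01 CPM and Ctsh at 5.14 and 19.0 CPM. In macrophages 0 of 14 cathepsins were higher and 1 was lower, with a median of -0.09. Over all genes 13.3% were higher and 7.79% lower there, and the cathepsins called lower lay near that share. Lcn2, a partner that binds MMP9, was 0.707 and 0.122 CPM in tumour cells, a log2 ratio of 2.53 on 82 and 13 UMIs. The neutrophil genes S100a8 and S100a9 also differed in the tumour gate, at 0.750 and 0.188 CPM and at 0.965 and 0.122 CPM. The part of neutrophil RNA in the Lcn2 value was not tested. Lcn2 is 1 of 4 measured genes of the neutrophil protease list, of which 2 were higher and 1 lower, against 13.6% and 17.0% of all genes.

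Of 18 measured matrix substrates, 8 were higher and 2 lower in tumour cells, against 13.6% and 17.0% of all genes, with a median log2 ratio of 0.35. Col3a1, a fibrillar collagen chain, was 1419 and 613 CPM, a log2 ratio of 1.21, and Eln, elastin, 1.77 and 0.301 CPM. Col18a1, a basement membrane collagen, was 31.3 and 93.5 CPM, a log2 ratio of -1.58. In macrophages 11 of 16 were higher and 1 lower, against 13.3% and 7.79% of all genes, with a median of 0.90, and Col3a1 there stood at 13.4% and 10.5% of its tumour level. In T cells 10.1% of all genes were higher and 16.6% lower. Beside these shares, the matrix substrates had 1 higher and 8 lower of 16. The genes of activation and clearance had 1 higher and 6 lower of 16. Hmga2 stood in the T cell gate at 7.96% and 21.0% of its tumour level, and the matrix substrate Bgn at 9.22% and 22.1%. The part of tumour cell RNA in these counts was not tested.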

How the data were processed

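Droplet single-cell RNA libraries were made from a tumour of MC38-RSPO3-OE cells and from a tumour of MC38-Ctrl cells, 1 library per group, and grouped by genotype in the labels. The authors deposited UMI counts, whole and not normalized, for each gene and barcode, and per the submitters' processing notes these were made by Cell Ranger 3.0.1 against mm10, whereas version 3.1.0 stands in the header of each matrix. The deposited barcodes were already called as cells.

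Kept barcodes had at least 200 genes and at most 20% mitochondrial UMIs, which removed 150 RSPO3-OE and 311 Ctrl barcodes. A further 171 and 95 were called doublets by Scrublet (scanpy 1.11.5, expected rate 0.05) and removed. Cells were gated by UMI minimums of marker genes. CPM is a gene's summed UMIs in a class over all UMIs of that class, with exact Poisson intervals. Shares have exact Clopper-Pearson intervals. Each log2 ratio sets RSPO3-OE over Ctrl and has an exact binomial interval of the split of UMIs, and a sum of 0 took a floor of 3 counts. A gene counted as higher or lower at 1.5-fold with at least 10 UMIs over both libraries. Shares were repeated after thinning each cell to 2000 UMIs, leaving out shallower cells. Likeness between genes is Pearson's r across cells of log(1 + UMIs per 10000).

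The text names all 10 members, up to 3 list genes at either end of the ratios in a class among those with at least 50 UMIs, of which examples are given, Lcn2, and the 3 genes most like a member where r was at least 0.3 in both libraries. The members, 6 gene lists, subsets and settings were chosen with earlier results of these data known. The work ran in Python 3.11.15 with scipy 1.17.1, numpy 2.4.6, matplotlib 3.10.9 and pandas 2.3.3. The log2 ratios and their intervals were tested on simulated Poisson counts for tumour cells and macrophages. Those counts hold no spread between cells, and the other steps were not tested in this way. Alternatives changed the filters, doublets, gates, scaling, thinning, averaging, fold and UMI minimum. The alternative without Y-linked cells in the tumour gate was added after seeing the data.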

Additional observations from a re-analysis of the deposited data

Results flagged for a closer look

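Timp2 had ratios of opposite sign in different classes under the same contrast. Its log2 ratio of RSPO3-OE over Ctrl was 0.85 in tumour cells and -0.39 in T cells, and it was 0.48 in macrophages against the same -0.39 in T cells. With 1 library per group the difference between classes was not tested, and the T cell value lay between -0.77 and 0.27 over 10 alternatives and kept its sign in 6 of them.

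Mmp3 and Timp3 gave a signal in cells that no class comparison uses, the ungated cells without Ptprc that hold a Y-linked UMI. Mmp3 gave 139 UMIs there in RSPO3-OE and 266 in Ctrl. Timp3 gave 108 UMIs in RSPO3-OE and 132 in Ctrl. In Ctrl 1 cell held 210 of the 266 Mmp3 UMIs.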

How the results depend on the processing

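No paired analysis was possible because each group has 1 library and the labels carry no replicate numbers. The 24 log2 ratios had 232 alternative values, of which 207 kept the sign of the reported value and 25 did not, in 10 of the ratios. Of those 25, 5 belong to ratios at or past 1.5-fold and are given below. The others include Timp2 in T cells (-0.77 to 0.27), Mmp9 in macrophages (-2.26 to 0.45) and Mmp19 in tumour cells (-0.38 to 0.58). The cause was not tested. In tumour cells the 6 members higher became 3 after thinning to 2000 UMIs, and the 1 lower became 0 under median-of-ratios scaling or a 2-fold limit. In macrophages the 3 higher became 5 without a barcode filter, with called doublets kept or with no UMI minimum, and the 0 lower became 1 with stricter gates or the mean of the cells' own CPM. In T cells the 1 higher became 2 without a filter, with doublets kept or with the cells' own CPM, and 0 after thinning. The 1 lower there became 0 under those settings, after thinning and at 2-fold, 4 without cells in more than 1 gate, and 3 with stricter gates. The members highest in tumour cells of RSPO3-OE went from 3 to 5 and in macrophages from 5 to 3 after thinning. Those highest in neutrophils went from 2 to 1 in RSPO3-OE without cells in more than 1 gate, and in both libraries with the cells' own CPM. Mmp12 in tumour cells turned to -0.026 without a filter, -0.013 with doublets kept and -0.090 with stricter gates. Timp1 in macrophages turned to -0.048 with stricter gates, and Mmp14 in T cells to 0.035 with the cells' own CPM. Over the 10 alternatives computed for it the log2 ratio of Mmp2 in tumour cells lay between 1.96 and 2.35. Depth limits Mmp3, Mmp13 and Timp3 in most classes, and the 14 Ctrl neutrophils limit every value there.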

Other observations

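Ungated cells without Ptprc and without a Y-linked UMI, 573 in RSPO3-OE and 951 in Ctrl, had Mmp2 at 311 and 57.1 CPM, a log2 ratio of 2.45. Their 5 fibroblast markers, none at 0, summed to 10273 and 5622 CPM, beside 3588 and 2390 CPM in gated tumour cells. Their mast cell markers summed to 31.1 and 7.73 CPM. Of the tumour markers, Krt8 was 228 and 79.7 CPM, Hmga1 45.8 and 73.0 CPM and Igf2bp2 37.3 and 32.9 CPM. Igf2bp3 and Krt18 reached at most 2.30 CPM, and Epcam and Hmga2 were at 0. The macrophage gene C1qa was 20.1 and 16.7 CPM. The part of these cell types in the member values was not tested. Mmp9 in the ungated cells was 8.63 and 18.7 CPM, a log2 ratio of -1.11, and their Timp2 741 and 376 CPM, a log2 ratio of 0.98. They also held 239 and 34 UMIs of Mmp12 and 110 and 6 of Mmp13.

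Ungated leukocytes with Ly6c2, a monocyte gene, were 178 in RSPO3-OE and 45 in Ctrl. Mmp12 gave 148 and 6 UMIs in them, or 106 and 18.7 CPM, a log2 ratio of 2.51 (1.35 to 3.98). Mmp19 gave 53 and 5 UMIs, or 38.0 and 15.5 CPM. The make-up of the group differed between the libraries, with macrophage markers at 3685 and 7870 CPM in sum, dendritic cell markers at 54.5 and 0 CPM, fibroblast markers at 162 and 28.0 CPM and tumour markers at 158 and 37.3 CPM. Its part in these values was not tested. These groups were formed after their values were seen.

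Across tumour cells the correlation of the log levels of Mmp2 and Mmp9 was -0.22 in RSPO3-OE and 0.17 in Ctrl. It is a description over cells of 1 library each.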
